A study of Mus musculus with 18 samples.

Results

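Activin signaling was described through 8 genes of the 52636 in the count table, chosen by symbol: the ligand subunits Inhba and Inhbb, the binding proteins Fst and Fstl3, the receptors Acvr1b, Acvr2a and Acvr2b, and the co-receptor Tgfbr3. RNA had been sequenced from sorted mouse epidermal cells (EpCAM+ CD45- CD140a- CD31-) of 6 groups. The mice were on a C57BL/6 background. Fl/fl mice carried floxed Zfp36 alleles without Cre, and ΔEP littermates, labelled Zfp36 ΔK14, carried the same alleles with a Cre under the keratin 14 promoter, which is active in basal keratinocytes. Zfp36 encodes tristetraprolin (TTP), a protein that binds AU-rich elements in 3′ untranslated regions (UTRs) and promotes decay of the mRNA. Each genotype was sampled in mock-treated skin (mock), in nontumoral skin next to tumors after treatment with the mutagen DMBA and the tumor promoter TPA (treated, which the labels call tumoral), and in papillomas (tumor). The labels name whole skin as the source, and they do not say whether replicates came from separate animals, so p-values measure only the spread between these samples.

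Activins are dimers of inhibin beta subunits. INHBA forms activin A and INHBB forms activin B. The dimer binds a type II receptor, ACVR2A or ACVR2B, which recruits the type I receptor ACVR1B (ALK4) and leads to phosphorylation of SMAD2 and SMAD3. Follistatin (FST) and follistatin-like 3 (FSTL3) bind activin outside the cell and block its access to the receptors, while TGFBR3 (betaglycan) presents TGF-β and helps inhibin to compete for type II receptors. In skin, activin A is known for its induction at wounds and its effects on keratinocytes and the underlying stroma.

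Mock ΔEP replicates 2 and 3 did not differ in any gene and entered as a single library, which left 17 libraries and n = 2 for that group. Total counts ranged from 2808550 to 9617985 per library, and fl/fl tumor replicate 1 had both the lowest total and the fewest genes with a count (19219 against up to 28145). Zfp36 ranged from 152 to 713 CPM (normalized read counts) in fl/fl libraries and from 10.05 to 38.4 CPM in ΔEP libraries. The 6 keratinocyte markers summed to 4662–33395 CPM and none was at 0 in any library. Of 6 listed immune markers 5 were matched, and these summed to 1.89–10.6 CPM. Fibroblast markers (6 genes) summed to 505–1671 CPM in mock skin, 375–952 CPM in treated skin and 30.3–385 CPM in tumors. Replicate 1 of both mock groups stood apart, with hair follicle markers (9 genes) at 1640 and 1720 CPM against 118–130 CPM in the other mock libraries, 585–1190 CPM in treated skin and 346–700 CPM in tumors. Of these 9 markers, 7 were lower without overlap in tumors than in treated skin of either genotype. Sox9 was higher in both genotypes, and Cd34 was higher without overlap in ΔEP tumors. In fl/fl tumors, sebaceous gland markers (4 genes) summed to 266, 3685 and 6648 CPM, against 245–675 CPM in all other libraries. As these are bulk samples, fewer cells of a type and less RNA per cell cannot be told apart.

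All 8 genes passed the filter on low counts in every comparison. Inhba and Fst rose in tumors of both genotypes, Acvr2b fell in ΔEP tumors against both kinds of skin, and Inhbb, Acvr1b and Acvr2b fell in fl/fl tumors against treated skin. A call required an edgeR adjusted p under 0.05 (Benjamini-Hochberg, over the genes tested) together with a fold change over 2. Between tumors and treated skin, 5 of the 8 were called in fl/fl cells, where 18% of 15362 genes were called, and 3 of the 8 in ΔEP cells, where 26% of 15289 genes were. The same comparisons left 5 and 4 members without overlap between the groups, beside 45.9% and 52.1% of the genes tested. Between tumors and mock skin, 2 of the 8 were called in fl/fl (4.11% of 15394 genes) and 3 of the 8 in ΔEP (14.3% of 15027 genes), and 5 and 4 members did not overlap, beside 32.4% and 52.9% of genes. The comparisons of tumors with mock and with treated skin share their tumor libraries.

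No member was called between genotypes or between treated and mock skin in edgeR's quasi-likelihood test. The study itself, by contrast, reported Inhba as significantly higher in ΔEP than in control tumors. At an unadjusted p under 0.05, the genotypes differed in 0 members in mock skin, 0 in treated skin and 3 in tumors, beside 1.59%, 5.55% and 14% of the genes tested, and beside calls of 0%, 0.00616% and 0.0284%. Members without overlap between genotypes numbered 0 in mock skin, 2 in treated skin and 2 in tumors, where 12.5%, 11.7% and 17.9% of genes did not overlap. Between treated and mock skin 1 member in fl/fl and 0 in ΔEP had an unadjusted p under 0.05, beside 5.5% and 4.8% of genes, and 1 member in each genotype did not overlap (Inhbb in fl/fl, Fst in ΔEP), beside 10.2% and 16.1%. Calls over all genes were 0% in both. The interactions of genotype with treated against mock skin, tumor against mock skin and tumor against treated skin called 0 members each, with 0%, 0% and 0.0118% of genes called. Their unadjusted p was under 0.05 for 0, 2 and 2 members, beside 1.45%, 8.18% and 13.2% of genes.

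**Figure D1:**
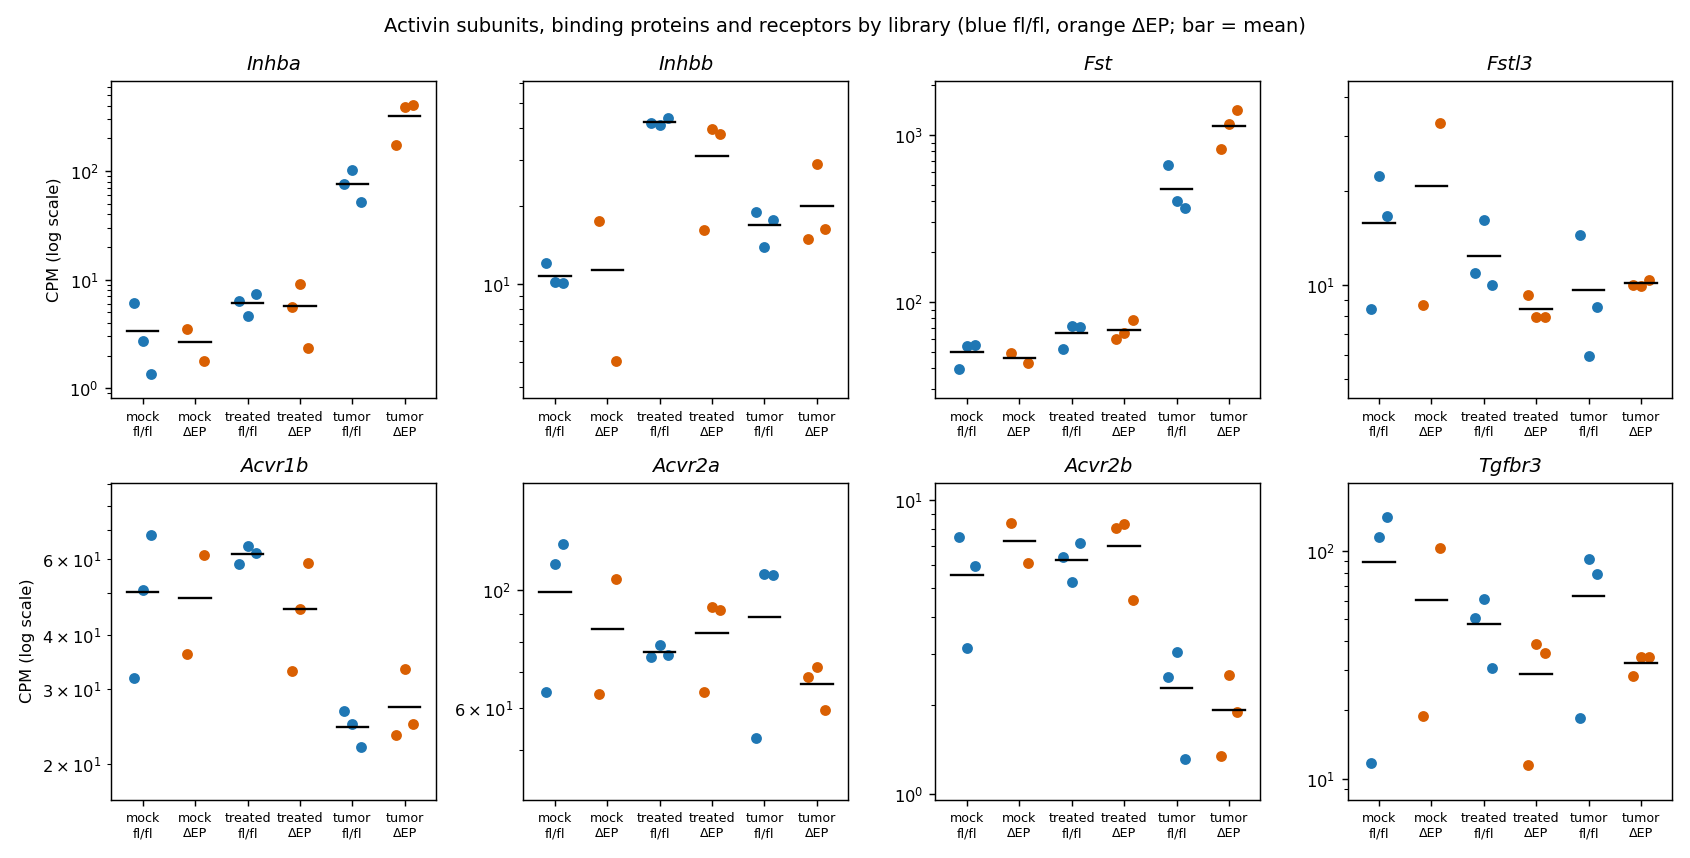
CPM on a log scale (y axis, normalized read counts on TMM-scaled library sizes) of each of the 8 genes in each of the 17 libraries, by stage and genotype (x axis; blue fl/fl, orange ΔEP; points are libraries and bars are group means). Inhba and Fst were higher in all 6 tumor libraries than in all 11 skin libraries, whereas Acvr2b was lower in all 6 tumor libraries.

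Inhba (ENSMUSG00000041324, chr13:16011851-16031621, plus strand, GRCm38) was scarce in skin. The mock libraries gave 6.08, 2.74 and 1.35 CPM in fl/fl and 3.51 and 1.80 CPM in ΔEP. Treated skin gave 6.38, 4.59 and 7.42 CPM in fl/fl and 5.54, 9.09 and 2.36 CPM in ΔEP. In tumors Inhba reached 76.1, 102 and 51.9 CPM in fl/fl and 173, 392 and 406 CPM in ΔEP. Tumors did not overlap with skin, and ΔEP tumors did not overlap with fl/fl tumors. Group means were 76.7 ± 25.1 CPM (SD, n = 3) in fl/fl tumors and 323 ± 131 CPM (n = 3) in ΔEP tumors.

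Relative to treated skin, Inhba rose in tumors by 3.59 on the log2 scale in fl/fl (SE 0.32, edgeR adjusted p = 0.00119) and by 5.68 in ΔEP (SE 0.53, edgeR adjusted p = 0.000339). Only 0.723% and 0.334% of the genes tested had a log2 fold change at least as large. Against mock skin the increases were 4.45 in fl/fl (SE 0.60, edgeR adjusted p = 0.0150) and 6.78 in ΔEP (SE 0.61, edgeR adjusted p = 0.00505). Inhba in mock skin rested on 5 to 55 counts per library, and the fl/fl call against mock skin was lost without mock fl/fl replicate 2 or without fl/fl tumor replicate 2 (highest edgeR adjusted p = 0.0853). The other 3 calls held under all alternatives.

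Between the genotypes, Inhba was 1.93 higher in ΔEP than in fl/fl tumors on the log2 scale (SE 0.37, unadjusted p = 0.000757), which did not pass the correction (edgeR adjusted p = 0.175). The study, which states edgeR at an FDR under 0.05, reported Inhba as significantly increased in ΔEP tumors at a fold change over 2. It does not name the edgeR test, and the main fit here did not reach that call. Of the 14067 genes tested, 13.7% were higher in ΔEP without overlap and 1.02% had a log2 fold change at least as large as Inhba. Inhba and Fst were the members without overlap, both higher in ΔEP. The difference of Inhba passed with DESeq2 (adjusted p = 0.000242), with edgeR's exact test (adjusted p = 0.000629), without a filter on low counts, and without fl/fl tumor replicate 1 (edgeR adjusted p = 0.00644), with log2 fold changes from 1.72 to 2.26 over all alternatives and the highest adjusted p at 0.639. The number of genes called over the whole table rose from 4 to 2613 when fl/fl tumor replicate 1 was left out. Keratinocyte markers in the same tumors summed to 33395, 10461 and 10453 CPM in fl/fl replicates 1 to 3 and to 26619.6–27438 CPM in ΔEP, and sebaceous gland markers also split the fl/fl tumors. The fl/fl tumors held 76.1, 102 and 51.9 CPM of Inhba beside sebaceous sums of 266, 3685 and 6648 CPM. The part of these cell types in the difference was not tested. In skin the genotypes overlapped, with log2 fold changes of −0.37 (SE 0.82) in mock and −0.13 (SE 0.46) in treated skin. The increase from treated skin to tumors exceeded that of fl/fl by 2.12 in ΔEP cells on the log2 scale (interaction, SE 0.61, unadjusted p = 0.00424, edgeR adjusted p = 0.214), and this was not called.

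Inhbb (ENSMUSG00000037035, chr1:119415465-119422248, minus strand) followed another course. Mock skin held 12.1, 10.2 and 10.02 CPM in fl/fl and 17.5 and 5.03 CPM in ΔEP. Treated skin held 41.8, 41.1 and 43.7 CPM in fl/fl, and 16.1, 39.6 and 38.1 CPM in ΔEP. Tumors held 19.0, 13.8 and 17.6 CPM in fl/fl, and 15.0, 29.0 and 16.3 CPM in ΔEP. The highest group mean of this subunit was therefore that of treated fl/fl skin, at 42.2 ± 1.38 CPM (SD, n = 3).

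Every treated fl/fl library was above every mock fl/fl library in Inhbb, a difference of 1.98 on the log2 scale (SE 0.18, unadjusted p = 1.66e-05) that fell short of the correction (edgeR adjusted p = 0.0585). Of the 16601 genes tested, 5.39% were higher without overlap, and Inhbb was the only such member. DESeq2, the exact test, the fit without a filter on low counts and the fit without mock fl/fl replicate 1 called it, with log2 fold changes from 1.95 to 2.10 over all alternatives and the highest adjusted p at 0.825. In ΔEP skin the corresponding value was 1.45 (SE 0.63, edgeR adjusted p = 1.0) with overlap, and the interaction was −0.54 (SE 0.64, edgeR adjusted p = 1.0). Against mock skin, Inhbb was higher without overlap in fl/fl tumors (13.8–19.0 against 10.02–12.1 CPM) but not called. There 32.4% of genes did not overlap in either direction, and 22.2% had a log2 fold change at least as large. In ΔEP, tumors and mock skin overlapped. From treated skin to tumors Inhbb fell by 1.37 on the log2 scale in fl/fl (SE 0.21, edgeR adjusted p = 0.00496), a call that held under all alternatives. The ΔEP value of −0.74 (SE 0.38, edgeR adjusted p = 0.159) did not pass, and the groups overlapped. It passed without treated ΔEP replicate 1 (edgeR adjusted p = 0.0224), the library at 16.1 CPM. Hair follicle markers were lower in tumors beside these values (7 of 9, Krt25 from 124–379 CPM in treated skin to 0.223–14.0 CPM in tumors), as they were beside those of Acvr1b and Bambi. Mock replicate 1, high in these markers, had the highest mock Inhbb of each genotype (12.1 and 17.5 CPM) but the lowest Acvr1b (31.7 and 36.1 CPM). Treated ΔEP replicate 1, the highest of its group in these markers, had its lowest Inhbb and Acvr1b (16.1 and 32.9 CPM). Mock replicate 1 was also low in differentiated keratinocyte markers, and the part of either cell type was not tested.

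Levels of the 2 subunits can be set side by side only per length, here CPM per kilobase of merged exons. Per kilobase, the Inhba to Inhbb ratio was between 0.0412 and 0.336 in all 11 skin libraries. It ranged from 1.96 to 4.91 in fl/fl tumors and from 7.69 to 16.6 in ΔEP tumors, without overlap among these 3 ranges. Inhba had the lowest level per kilobase of the 8 genes in each of the 4 skin groups (0.415–0.959 CPM per kilobase). It was the third in fl/fl tumors (12.01 ± 3.93 CPM per kilobase; SD, n = 3) and the second in ΔEP tumors (50.6 ± 20.5 CPM per kilobase, n = 3).

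**Figure D2:**
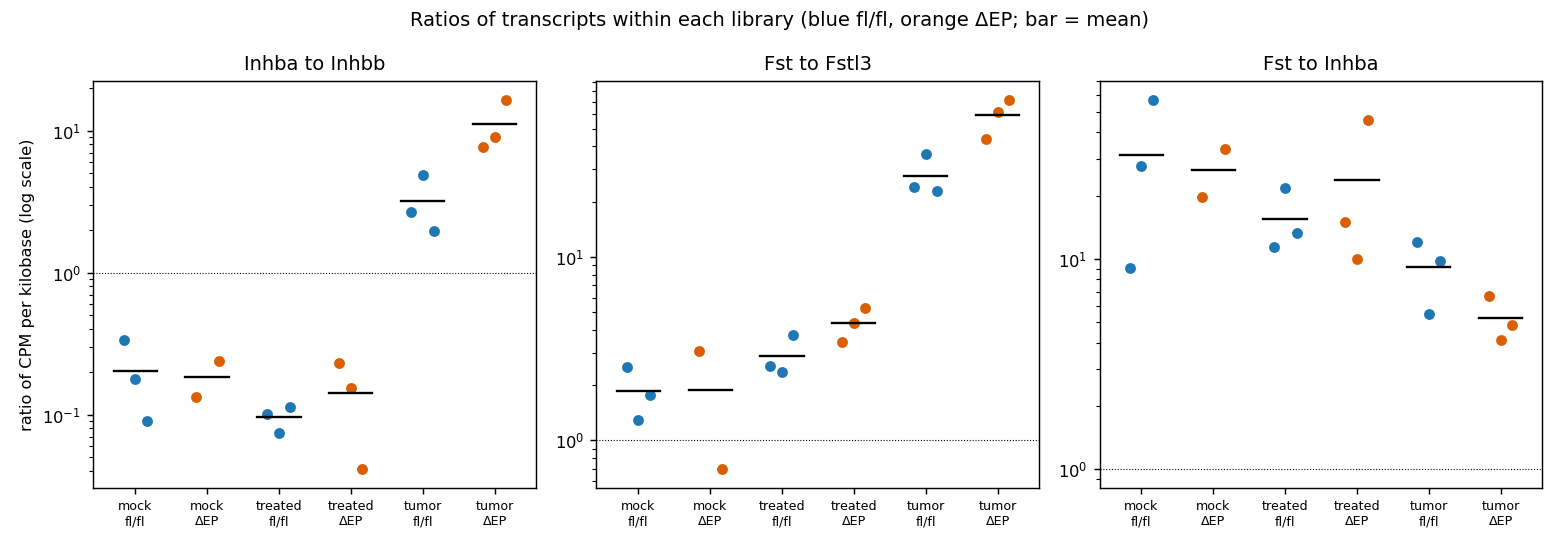
Ratios of CPM per kilobase of merged exons within each library (y axis, log scale) for Inhba to Inhbb, Fst to Fstl3 and Fst to Inhba, by stage and genotype (x axis; points are libraries, bars are means). The ratio of Inhba to Inhbb was below 1 in the 11 skin libraries and above 1 in the 6 tumor libraries, and the mean ratio of Fst to Inhba was 9.11 in fl/fl and 5.21 in ΔEP tumors.

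Among the binding proteins, Fst (ENSMUSG00000021765, chr13:114452290-114458951, minus strand) moved in the same direction as Inhba. Mock skin gave 39.7, 54.2 and 55.5 CPM in fl/fl and 49.6 and 43.1 CPM in ΔEP. In treated skin the values were 52.1, 71.5 and 70.7 CPM in fl/fl and 59.9, 65.2 and 77.9 CPM in ΔEP. Tumors gave 657, 403 and 366 CPM in fl/fl and 830, 1157 and 1410 CPM in ΔEP. Neither tumor group overlapped with skin, and the genotypes did not overlap in tumors. Of the exon bases of Fst, 115 overlap Gm47040 on the other strand, and use of strand in the counting is not given. Gm47040 held 0.325–1.75 CPM in skin and 2.94–10.05 CPM in tumors. Within fl/fl tumors, replicate 1 had the highest Fst level and also the highest keratinocyte marker sum, 33395 CPM against 10461 and 10453 CPM, and their relation was not tested.

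Fst rose from treated skin to tumors by 2.84 on the log2 scale in fl/fl (SE 0.28, edgeR adjusted p = 0.00132) and by 3.96 in ΔEP (SE 0.25, edgeR adjusted p = 0.000165). Against mock skin, tumors had Fst higher by 3.22 in fl/fl (SE 0.33, edgeR adjusted p = 0.00671) and by 4.51 in ΔEP (SE 0.37, edgeR adjusted p = 0.00461). Of these calls, only the fl/fl call against mock skin was lost under an alternative, when replicate 2 of mock fl/fl was left out (edgeR adjusted p = 0.0590). Between genotypes in tumors, Fst was 1.12 higher in ΔEP on the log2 scale (SE 0.28, unadjusted p = 0.00407), which missed the correction (edgeR adjusted p = 0.209), and 4.04% of genes tested had a difference at least as large. DESeq2 (adjusted p = 0.0209), the exact test (edgeR adjusted p = 0.0363), the fit of all libraries (edgeR adjusted p = 0.0449), the fit without a filter on low counts and the fit without fl/fl tumor replicate 1 (edgeR adjusted p = 0.00195) called it, and the highest adjusted p over the alternatives was 0.689. The interaction of genotype and tumor against treated skin was 1.14 (SE 0.35, unadjusted p = 0.00687, edgeR adjusted p = 0.243). In skin the genotypes overlapped, at −0.10 (SE 0.26) in mock and 0.04 (SE 0.18) in treated skin.

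Inhba and Fst had the closest profiles of any 2 members, with a root mean square difference of 0.265 between z-scored log2 CPM over the 17 libraries, against 0.499 to 1.87 for the other pairs. Their shared pattern is that of tumors against skin, which the libraries have in common. Per kilobase, Fst exceeded Inhba in every library. The ratio of Fst to Inhba was 9.09–57.3 in skin, 5.50–12.02 in fl/fl tumors and 4.11–6.69 in ΔEP tumors, and the 2 tumor ranges overlapped. Fst had the highest level per kilobase of the 8 genes in treated skin and in tumors, at 104 ± 34.5 CPM per kilobase in fl/fl tumors and 247 ± 63.3 CPM per kilobase in ΔEP tumors (SD, n = 3 each). With the longest transcript as the length, the Fst levels were 163 and 388 CPM per kilobase, the mean ratio to Inhba in tumors was 14.3 in fl/fl and 8.19 in ΔEP in place of 9.11 and 5.21, and Fst was the highest in mock ΔEP skin too.

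Fstl3 (ENSMUSG00000020325, chr10:79777272-79782630, plus strand) did not share this pattern. Its level was 8.41, 22.3 and 16.7 CPM in mock fl/fl and 8.63 and 33.0 CPM in mock ΔEP skin. Treated skin ranged from 7.92 to 16.2 CPM. Tumors ranged from 5.93 to 14.5 CPM, and of the 6 tumor libraries only fl/fl replicate 2, at 5.93 CPM, was below all skin libraries. No comparison called Fstl3, and the value in fl/fl tumors against treated skin was −0.43 (SE 0.38, edgeR adjusted p = 0.427). In ΔEP the sign was the opposite, at 0.18 (SE 0.23, edgeR adjusted p = 0.574), and the tumor libraries (9.96–10.4 CPM) were all above the treated ones (7.92–9.30 CPM), as were 28.4% of genes. In treated skin it was lower without overlap in ΔEP, as was Inhbb, with log2 fold changes of −0.57 (SE 0.25, edgeR adjusted p = 0.899) and −0.45 (SE 0.31, edgeR adjusted p = 0.914). Of the 16232 genes tested there, 5.95% were lower without overlap. The ratio of Fst to Fstl3 per kilobase was 0.695–5.24 in skin, 23.0–36.2 in fl/fl tumors and 44.0–72.0 in ΔEP tumors. The Fstl3 level is uncertain, since 1157 of its exon bases overlap Prss57 on the other strand, use of strand in the counting is not given, and Prss57 had the profile closest to Fstl3 of 18251 genes (4.87–28.4 CPM, root mean square difference 0.176).

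The untranslated regions of the members differ in the motif that TTP is known to bind. In the longest annotated 3′ UTR of each gene (GENCODE, GRCm38, sense strand), Inhba had 5 copies of the heptamer TATTTAT in 4492 bases, and Fst had 4 copies in 1514 bases. At least 4 copies were found in 1.75% and at least 5 in 0.855% of 21062 genes, and 27.4% had at least 1. Genes with at least 4 copies had a median UTR length of 3571 bases, against 1085 bases over all genes. Fstl3, Acvr1b and Acvr2a had 1 copy each, and Inhbb, Acvr2b and Tgfbr3 had 0 in the longest UTR, although another transcript of Tgfbr3 held 1. The longer nonamer TTATTTATT, which contains the heptamer, was present 3 times in Inhba, 3 times in Fst and 1 time in Fstl3, and in 7.58% of all genes. A match is a description of the sequence and not a measured binding site.

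The sites of Inhba and Fst follow because these members differed without overlap between the genotypes in tumors, with that of Fstl3, another binding protein, for comparison. Each lies in the 3′ UTR of the last exon and is written 5′ to 3′ as DNA, with the heptamers in capitals. The first Inhba window holds 2 heptamers that directly follow each other.
Inhba, chr13:16029046-16029074, plus strand: cttaTATTTATTATTTATtggaatcaatc
Inhba, chr13:16031030-16031058, plus strand: agctatattatTATTTATttttatgcata
Inhba, chr13:16031362-16031390, plus strand: tggtttcttaaTATTTATtttgtagaagt
Inhba, chr13:16031455-16031483, plus strand: atagcagaagtTATTTATttctattccat
Fst, chr13:114453250-114453278, minus strand: aagtgtatgctTATTTATttggggggaaa
Fst, chr13:114453108-114453136, minus strand: ttgtagacattTATTTATactgtgtcatg
Fst, chr13:114453005-114453033, minus strand: agagcagttgtTATTTATtgtgaggtctc
Fst, chr13:114452835-114452863, minus strand: tctgtcatgttTATTTATtggattctcag
Fstl3, chr10:79781506-79781534, plus strand: catcccgatttTATTTATtgttatagaaa
The 4 heptamers of Fst start between 537 and 952 bases into its UTR, and the 5 of Inhba between 1921 and 4337 bases. Fstl3, whose heptamer starts 42 bases into the UTR, had a log2 fold change of −0.01 (SE 0.36) between genotypes in tumors. That heptamer lies in the exon bases that overlap Prss57, so this value carries the uncertainty about strand given for Fstl3. The differences of Acvr1b and Acvr2a, which hold 1 heptamer each, were 0.02 (SE 0.23) and −0.56 (SE 0.29). For Inhbb, Acvr2b and Tgfbr3, with 0 in the longest UTR, 36.3%, 78% and 95.1% of genes tested had a log2 fold change at least as large. The study had selected Inhba from these libraries by its AU-rich element score and its rise in ΔEP tumors. Its motifs and its difference are therefore not independent observations, and a relation of motif number to the differences was not tested.

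**Figure D3:**
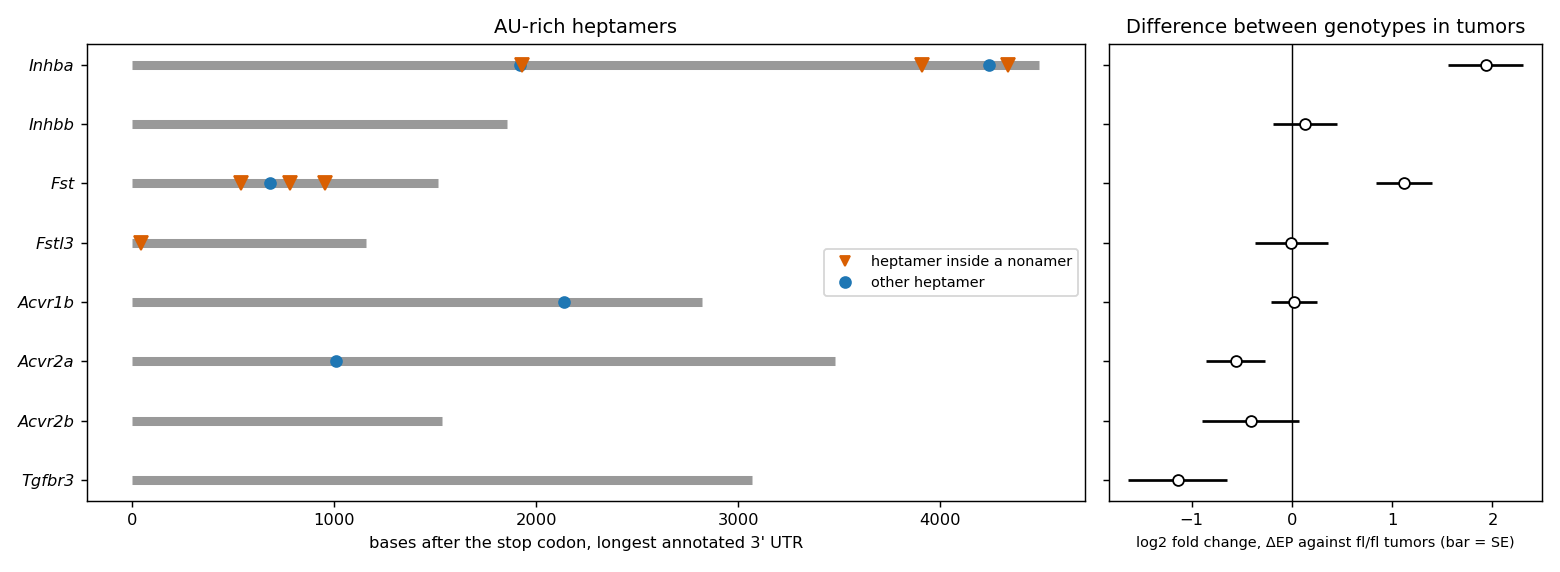
Left, heptamers along the longest annotated 3′ UTR of each gene (x axis, bases after the stop codon; gray bars are UTRs, orange triangles are heptamers inside a nonamer and blue circles are other heptamers). Right, the log2 fold change of ΔEP against fl/fl tumors for the same genes (points, with the SE as bars), which was not called for any of the 8. It was 1.93 for Inhba and 1.12 for Fst. The study had selected Inhba from these libraries by its AU-rich element score and its rise in ΔEP tumors, and a relation of the 2 panels was not tested.

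Of the receptors, the type I receptor Acvr1b (ENSMUSG00000000532, chr15:101174067-101213684, plus strand) was lower in tumors. Mock skin gave 31.7, 50.9 and 68.3 CPM in fl/fl and 36.1 and 61.4 CPM in ΔEP. Treated skin gave 58.4, 64.2 and 62.1 CPM in fl/fl and 32.9, 46.0 and 58.7 CPM in ΔEP. Tumors gave 26.5, 24.8 and 21.9 CPM in fl/fl and 23.4, 33.3 and 24.8 CPM in ΔEP. The treated and tumor libraries did not overlap in fl/fl, while the highest ΔEP tumor library was just above the lowest treated one.

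Acvr1b fell by 1.37 on the log2 scale from treated skin to tumors in fl/fl (SE 0.18, edgeR adjusted p = 0.00286), and the call held under all alternatives. In ΔEP the difference was −0.85 (SE 0.25, edgeR adjusted p = 0.0270), under the required fold, and leaving out treated ΔEP replicate 1 took it to −1.02, which was called. The interaction of 0.54 (SE 0.30, edgeR adjusted p = 0.471) was not called. Against mock skin the values were −1.08 in fl/fl (SE 0.33, edgeR adjusted p = 0.0983) and −0.93 in ΔEP (SE 0.32, edgeR adjusted p = 0.0944), both without overlap and neither called. In fl/fl, 16.9% of genes were lower in tumors than in mock skin without overlap, and in ΔEP 24.2% were.

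Acvr2b (ENSMUSG00000061393, chr9:119402118-119434995, plus strand), a type II receptor, was the least abundant of the 8 in tumors per kilobase. Mock skin held 7.52, 3.13 and 5.98 CPM in fl/fl and 8.36 and 6.11 CPM in ΔEP, and treated skin held 6.38, 5.24 and 7.16 CPM in fl/fl and 8.04, 8.31 and 4.55 CPM in ΔEP. Tumors held 2.504, 3.04 and 1.31 CPM in fl/fl and 1.34, 2.53 and 1.90 CPM in ΔEP, all below the lowest skin library. These tumor values rested on 4 to 20 counts per library.

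Acvr2b fell from treated skin to tumors by 1.45 on the log2 scale in fl/fl (SE 0.40, edgeR adjusted p = 0.0343) and by 1.94 in ΔEP (SE 0.40, edgeR adjusted p = 0.00660). Against mock skin it fell by 1.99 in ΔEP (SE 0.43, edgeR adjusted p = 0.0317), and the fl/fl value was −1.30 (SE 0.54, edgeR adjusted p = 0.176). The ΔEP call against treated skin held under all alternatives. The fl/fl call against treated skin was lost with the replicate number as a block and when any treated fl/fl library or fl/fl tumor replicate 3 was left out (highest edgeR adjusted p = 0.125). That against mock skin in ΔEP was lost with that block and without mock ΔEP replicate 1 or any of the 3 ΔEP tumor libraries (highest edgeR adjusted p = 0.125). Between genotypes in tumors the difference was −0.41 (SE 0.48, edgeR adjusted p = 0.739).

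The other type II receptor, Acvr2a (ENSMUSG00000052155, chr2:48814109-48903269, plus strand), was not called in any comparison. Its libraries ranged from 63.7 to 122 CPM in mock skin, from 64.4 to 92.9 CPM in treated skin and from 52.6 to 107 CPM in tumors. Of its exon bases, 446 overlap Orc4 on the other strand (65.4–86.3 CPM), so these levels carry the uncertainty about strand given for Fstl3. Tumors against treated skin gave log2 fold changes of 0.20 in fl/fl (SE 0.28, edgeR adjusted p = 0.620) and −0.41 in ΔEP (SE 0.20, edgeR adjusted p = 0.140). Per kilobase, Acvr2a exceeded Acvr2b in every library, by a ratio of 5.26–24.7 in skin and 14.5–56.5 in tumors.

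Tgfbr3 (ENSMUSG00000029287, chr5:107106570-107289629, minus strand) varied widely within groups. Mock skin gave 11.7, 115 and 141 CPM in fl/fl and 18.9 and 103 CPM in ΔEP, and the low value in each genotype was replicate 1, the library with hair follicle markers at 1640 or 1720 CPM. Differentiated keratinocyte markers in these libraries were at 699 and 571 CPM, against 5784–7783 CPM in the other mock libraries. Treated skin gave 51.0, 61.4 and 30.6 CPM in fl/fl and 11.4, 39.0 and 35.7 CPM in ΔEP. Fl/fl tumors gave 18.5, 91.9 and 79.3 CPM beside sebaceous gland markers at 266, 3685 and 6648 CPM, and ΔEP tumors gave 28.1, 34.0 and 34.3 CPM beside 273, 245 and 350 CPM of those markers. The part of any of these cell types in the values of Tgfbr3 was not tested.

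No comparison called Tgfbr3 with all libraries. The largest difference between genotypes was −1.14 in tumors (SE 0.49, unadjusted p = 0.0486, edgeR adjusted p = 0.352), where the groups overlapped. Without fl/fl tumor replicate 1 it was −1.52 and called (edgeR adjusted p = 0.000531), but 2613 genes were called in that fit. The sign of tumors against mock skin in ΔEP turned with 1 library, from −1.01 (SE 0.61) to 0.76 without mock ΔEP replicate 2. Gm43422, an annotated transcript on the same strand that shares 297 exon bases with Tgfbr3, had the closest profile of all genes (root mean square difference 0.292), and reads of the 2 cannot be told apart there.

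**Figure D4:**
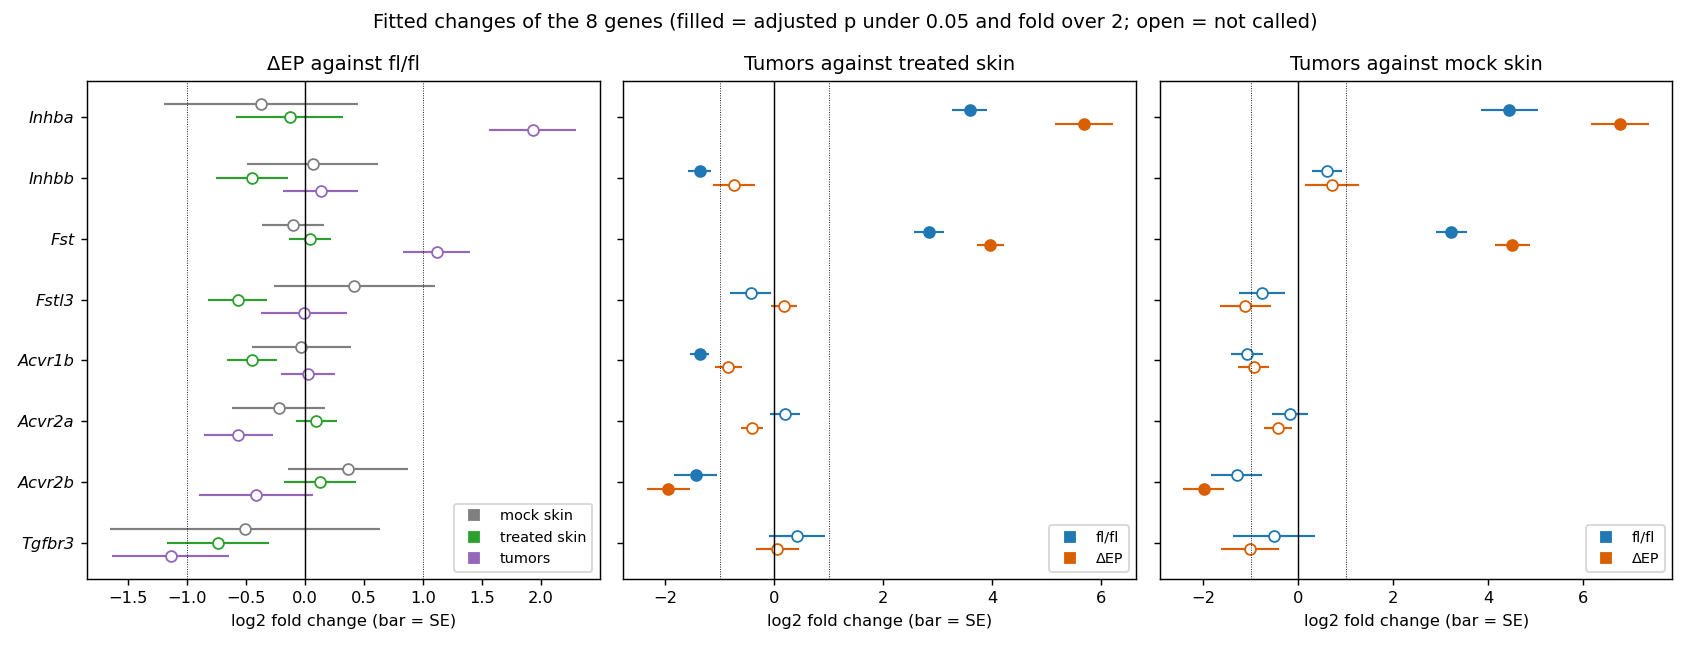
Fitted log2 fold changes (x axis; points, with the SE as bars) of the 8 genes for ΔEP against fl/fl at each stage, tumors against treated skin, and tumors against mock skin in each genotype; filled points passed the adjusted p and fold thresholds. Inhba and Fst were called higher in all 4 comparisons of tumors with skin, and no gene was called between genotypes.

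Over the members as a list, the median log2 fold change of tumors against treated skin was −0.12 in fl/fl and −0.18 in ΔEP, beside −0.02 and −0.03 over all genes tested, as higher and lower members offset each other. For genotype in tumors it was 0.01, beside −0.02 over all genes. In fl/fl, the 2 members called higher compare with 7.5% of all genes called higher and the 3 called lower with 10.5% of all genes called lower. The corresponding shares in ΔEP were 10.5% and 15.5%, for 2 and 1 members.

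A list of 39 other genes of the pathway was examined beside the members, and 26 to 28 of them could be tested. Between tumors and treated skin, 5 rose and 3 fell of 26 in fl/fl, and 9 rose and 4 fell of 27 in ΔEP, beside 7.5% and 10.5% of all genes in fl/fl and 10.5% and 15.5% in ΔEP. Against mock skin, 2 rose and 0 fell of 27 in fl/fl, beside 2.22% and 1.88% of all genes, and 6 rose and 1 fell of 27 in ΔEP, beside 7.05% and 7.22%. In the comparisons between genotypes and between treated and mock skin 0 were called, and in tumors 2 of 27 had an unadjusted p under 0.05 between genotypes (edgeR), beside 14% of all genes. The median log2 fold change of the list in tumors against treated skin was 0.28 in fl/fl and 0.25 in ΔEP, beside the −0.02 and −0.03 of all genes. By class, to be read against the same shares of all genes, 3 of 5 targets rose and 1 fell in fl/fl, and 4 rose and 1 fell in ΔEP. Of 5 other receptors 1 rose in fl/fl and 2 in ΔEP, of 11 signal transduction genes 1 rose in fl/fl and 2 in ΔEP, and both tested modulators fell in each genotype.

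Of the targets of SMAD2 and SMAD3, Pmepa1, which encodes a negative regulator of SMAD signaling, rose in tumors against treated skin by 1.95 on the log2 scale in fl/fl (SE 0.22, edgeR adjusted p = 0.00204) and 1.76 in ΔEP (SE 0.28, edgeR adjusted p = 0.00234). Cdkn1a, which encodes a cell cycle inhibitor, rose by 1.99 and 2.07 on this scale. Another target, Ctgf, encoding a matricellular protein, fell by 3.47 in fl/fl and 1.62 in ΔEP. Tgfbr2, the type II receptor of TGF-β, rose by 1.42 in fl/fl and 2.03 in ΔEP. In ΔEP, Furin, a convertase that cleaves activin and TGF-β precursors, rose by 1.32, and Smurf1, a ubiquitin ligase of the pathway, by 1.58.

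Among modulators, Bambi, a decoy type I receptor, fell from treated skin to tumors by 2.83 on the log2 scale in fl/fl and 3.76 in ΔEP. Treated skin held 16.5–89.2 CPM and tumors 3.26–7.46 CPM. In mock replicate 1 Bambi was at 102 (fl/fl) and 79.8 CPM (ΔEP), beside 2.93–6.11 CPM in the other mock libraries, which overlap the tumor range. Fstl1, a secreted relative of follistatin, fell by 3.47 in fl/fl and 1.83 in ΔEP. Fibroblast markers were lower in the same tumors, at 82.6–197 CPM (fl/fl) and 30.3–385 CPM (ΔEP) against 375–952 CPM in treated skin, and their part in the values of Fstl1 and Ctgf was not tested. Pcsk6, another convertase, fell by 2.52 in ΔEP. Against mock skin, Pmepa1 rose by 2.72 in fl/fl and 2.46 in ΔEP on the log2 scale. In ΔEP, Furin rose by 1.72 and Smad3, a transducer of activin signals, by 2.32 against mock skin, and Bambi fell by 3.59, with the mock ΔEP libraries at 79.8 and 6.11 CPM.

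The genes with profiles most like each member over the 17 libraries were found by the root mean square difference of z-scored log2 CPM among 18251 genes, as a description. For Inhba these were Picalm (0.235) and Mlkl (0.240), and for Fst they were Tpm4 (0.139) and Areg (0.168). Areg, which encodes the EGF receptor ligand amphiregulin, averaged 11.3–17.0 CPM in the skin groups, 202 ± 97.0 CPM in the fl/fl and 844 ± 390 CPM in the ΔEP tumors (SD, n = 3 each). Inhbb was most like Slc43a2 (0.403) and Kif21b (0.541). Acvr1b was most like Faf2 (0.323) and Ephb6 (0.333), Acvr2a like Unc13b (0.257) and Insr (0.303), and Acvr2b like Arhgap33 (0.289) and Pbx2 (0.337). After the overlapping genes named above, Gsta2 (0.416) came next for Fstl3 and Rnf217 (0.300) for Tgfbr3.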

How the data were processed

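RNA-Seq of sorted epidermal cells was analyzed from 18 count columns, of which 17 were distinct. The authors deposited unnormalized read counts for each gene, obtained from Ovation SoLo libraries run on an Illumina HiSeq. The submitters' processing notes name Trimmomatic 0.36, STAR 2.5.3, HTSeq 0.9.1, DESeq2 and mm10. Which annotation was counted, whether strand was used and whether duplicates were removed is not given in the sources used here, so overlapping genes are uncertain, and duplicates make counting precision cover counting error only. The study's pairwise comparisons used edgeR.

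Members were matched by symbol. Members and lists were chosen with earlier results of these data known, and Inhba is a gene that the study itself singled out from these libraries. The study took Inhba from genes with a high score for AU-rich elements and higher levels in ΔEP tumors. The software was R 4.3.3 (edgeR 4.0.16, DESeq2 1.42.0, limma 3.58.1). A comparison used the libraries of its own groups, filterByExpr, TMM scaling and the two-sided quasi-likelihood F test of edgeR, with Benjamini-Hochberg adjustment over all genes tested. Interactions were contrasts over 4 groups. CPM used TMM-scaled library sizes, and z-scored profiles used log2 CPM with a prior count of 2 over 18252 filtered genes. Procedures were tested on simulated data. Positions, exon lengths and UTRs came from GENCODE M21 (GRCm38), in which 52489 of 52636 gene IDs were found. Named beside members were the pathway genes called, up to 4 with the smallest p per comparison and direction, and the 2 genes most alike. One pathway gene is not reported here. Alternatives were DESeq2, edgeR's exact test, 1 fit of all libraries, RLE scaling, no filter, a filter at a mean count of 10, the replicate block, a separate term for mock replicate 1, the identical columns as 2 libraries, and each library left out.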

Additional observations from a re-analysis of the deposited data

How the results depend on the processing

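The count of members called differed from the main one in 29 of 172 settings, and in 17 by over 1.5 times. For genotype in tumors, where 0 were called, DESeq2 and the exact test called 2, the fit of all libraries 1 and no filter 2. Leaving out libraries gave 0 to 3. Genes called over the whole table rose there from 4 of 14067 to 366 with DESeq2 and 328 with the exact test. They were 122 of 18252 in the fit of all libraries, 1393 of 32605 without a filter, and 2613 of 15463 without fl/fl tumor replicate 1. For treated against mock skin in fl/fl (0), DESeq2, the exact test and no filter called 1, and leaving out libraries gave 0 to 3. Over all genes, 0 of 16601 were called in the main fit, 118 with DESeq2, 105 with the exact test and 30 of 33977 without a filter. Without mock fl/fl replicate 1, 2587 of 17103 were. For tumors against mock skin, the fit of all libraries called 4 and DESeq2 3 in fl/fl (main 2), the identical columns as 2 libraries called 4 in ΔEP (main 3), and leaving out libraries gave 0 to 3 in fl/fl and 2 to 6 in ΔEP. For tumors against treated skin, leaving out libraries gave 4 to 5 in fl/fl (main 5) and 3 to 5 in ΔEP (main 3). All genes called were then 1106 to 4138 in fl/fl (main 2764) and 2823 to 4773 in ΔEP (main 3973). Without a filter, the interactions with tumor against mock and against treated skin had 1 and 2 calls, beside 188 of 36019 and 1003 of 36391 genes. Leaving out libraries gave 0 to 1 in the latter, beside 0 to 1352 genes. The cause was not tested. Where a group was left with 1 library, that library is assumed to vary like the others.

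Of 545 settings for 40 member values, 499 left the call and sign as they were, 31 gained a call, 13 lost one and 2 changed sign. Those 2, both without mock ΔEP replicate 2, were Fstl3 (0.22, range with a library left out −1.74 to 0.22) and Tgfbr3 (0.76, range −1.72 to 0.76) in ΔEP tumors against mock skin. Of 56 other values, all with unadjusted p above 0.1, 32 changed sign under at least 1 alternative. The labels do not say that replicate numbers mark shared animals. In no comparison with 3 pairs were all same-numbered libraries correlated over 0.1 (−0.546 to 0.391), nor did every library correlate best with its own number in any of them. With 2 pairs, both were over 0.1 for genotype in mock skin (0.569 and 0.782) and for treated against mock skin in ΔEP (0.141 and 0.569). Of those in ΔEP tumors against mock skin, 1 was (0.124, the other 0.0943). With 2 libraries in mock ΔEP, their deviations from the group mean are exact opposites, so these pairs are not independent. Mock ΔEP replicate 2 correlated better with replicate 3 of mock fl/fl (0.721) and of treated ΔEP (0.460) than with their replicate 2 (0.569 and 0.141). The block called 110 of 15920 genes for genotype in mock skin and 43 of 15891 for treated against mock skin in ΔEP, against 0 in the main fits. With the replicate number as a block, 4 members were called in fl/fl tumors against treated skin, beside 1831 of 15362 genes. In ΔEP tumors against mock skin 2 were, beside 938 of 15027 genes. Acvr2b was not called in either, and no other member call changed. Depth limits Acvr2b (4 to 20 counts in tumors) and Inhba (5 to 55 in mock skin).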
